A study of Caenorhabditis elegans with 14 samples.

Results

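The epidermal antimicrobial peptide genes described here are 10 genes of *C. elegans*, taken by name from the 42048 gene rows of the count files. They are 6 *nlp* genes of the *nlp-29* cluster (*nlp-27*, *nlp-28*, *nlp-29*, *nlp-30*, *nlp-31* and *nlp-34*) and 4 *cnc* genes, the caenacins *cnc-1*, *cnc-2*, *cnc-3* and *cnc-4*. RNA-seq was performed on whole larvae of 7 groups in 14 count files. L4 larvae were collected after 36 h of growth at 25 °C from WT (N2), from the single mutants *nfki-1(cer1)* and *ikb-1(nr2027)*, and from a strain with both of these alleles, named the double mutant here. L1 larvae came from WT and from the mutants *nfki-1(cer2)* and *ikb-1(cer9)*, and were fed for 5 h and starved for 3 h at 25 °C. Each group has 2 files, each genotype is 1 strain, and the single mutants carry different alleles at the 2 stages. *cer1*, *cer2* and *cer9* were made by CRISPR-Cas9, *cer1* and *cer2* leading to premature stop codons and *cer9* removing the start codon, whereas *nr2027* deletes the ankyrin-repeat part of *ikb-1*. *nfki-1* and *ikb-1* encode the worm homologs of the mammalian IκB proteins. No group was infected or wounded according to the labels.

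The *nlp* peptides of this cluster and the caenacins are short secreted peptides, many of them rich in glycine and aromatic residues, that are made in the epidermis of the worm. *nlp-29* is the usual reporter of the epidermal response to the fungus *Drechmeria coniospora* and to wounding, and its induction runs through the kinase cascade of TIR-1, NSY-1, SEK-1 and the p38 kinase PMK-1 to SNF-12 and the STAT-like factor STA-2. *cnc-2* is the caenacin whose induction by the fungus is known to depend on the TGF-β ligand DBL-1. High osmolarity, loss of OSM-8 and loss of the furrow collagens of the cuticle are also known to raise *nlp-29*.

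All 10 genes lie on chromosome V of the WBcel235 assembly, have 2 exons each and overlap no other annotated gene. The *nlp-29* cluster spans chrV:3978825-3989770, or 10.946 kb, in the order *nlp-34*, *nlp-31*, *nlp-30*, *nlp-29*, *nlp-28* and *nlp-27*, with no other protein-coding gene in between and *nlp-34* alone on the minus strand. The caenacins span chrV:1444044-1450183, or 6.14 kb, in the order *cnc-1*, *cnc-4*, *cnc-3* and *cnc-2*, with *cnc-5* between *cnc-1* and *cnc-4*. The gene identifiers run from WBGene00003765 for *nlp-27* to WBGene00003769 for *nlp-31*, and from WBGene00000555 for *cnc-1* to WBGene00000558 for *cnc-4*. *nlp-34* is WBGene00015046. The files are marked as holding unique alignments, so a stretch shared between paralogs would lower the count of both genes.

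Depth set what could be compared. The L4 files held 19735958 to 22373456 reads on genes and the L1 libraries 57740500 to 63394016. The 2 L4 files of a strain differed by less than the sampling noise once the difference shared by all strains was removed (0.654 to 0.721 times the counting variance, against 10.2 to 21.6 times at L1), so they were summed and counted as 1 sample. No L4 comparison therefore has a replicate check, and the 95% intervals of L4 log2 ratios cover counting error only. Levels are given in counts-per-million (CPM), the count divided by the TMM-scaled total of reads on genes within the stage. The targeted genes were lower in the mutants. *nfki-1*, listed as C33A11.1, was at 36.7 CPM in L4 WT, 6.85 in the *nfki-1(cer1)* mutant, 25.0 in the *ikb-1(nr2027)* mutant and 7.23 with both alleles. *ikb-1* was at 11.6, 5.80, 3.44 and 2.74. At L1, *ikb-1* was at 50.5 ± 3.30 in WT and 2.20 ± 0.802 in *ikb-1(cer9)* (SD, n = 2), and *nfki-1* (C33A11.1) at 152 ± 7.64 in WT and 87.2 ± 16.2 in *nfki-1(cer2)* (SD, n = 2).

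9 of the 10 genes passed the filter on low counts (filterByExpr of edgeR, minimum count 10) at both stages. The exception was *cnc-1*, which had 1 count in all 8 L4 files together. Its 0 counts in WT allow a level of up to 0.0802 CPM at L4. At L1 *cnc-1* had 0 to 7 counts per library, so it was not tested and none of the counts below includes it.

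In L4 larvae *nlp-30*, *nlp-31* and *cnc-3* were lower in the single IκB mutants than in WT, and the double mutant lay between them and WT or near WT. Scaling to epidermis markers turned *nlp-30* in *ikb-1(nr2027)* to 0.06 and *nlp-31* in the double mutant to 0.81, and put *nlp-30* of the double mutant at 1.60. *nlp-31*, whose peptide has antimicrobial activity in vitro, was at 47.6 and 53.7 CPM in the 2 WT files, 8.11 and 8.36 in the *nfki-1(cer1)* files, 9.91 and 9.39 in the *ikb-1(nr2027)* files, and 33 and 35.7 in the double mutant. *nlp-30*, its neighbour, was at 31.1 and 24 in WT, 5.78 and 5.69 in the *nfki-1(cer1)* files, 9.39 and 8.78 in the *ikb-1(nr2027)* files, and 34.4 and 29.7 in the double mutant. *cnc-3*, the most abundant in L4 WT of the caenacins among the members, was at 35.3 and 48.3 in WT, 2.02 and 2.47 in the *nfki-1(cer1)* files, 3.46 and 5.05 in the *ikb-1(nr2027)* files, and 9.69 and 12.5 in the double mutant. For these 3 genes the files of both single mutants lay below all WT and double mutant files. Only for *nlp-30* did the double mutant overlap WT.

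The log2 ratio of *cnc-3* to WT was -4.21 in *nfki-1(cer1)* (95% interval -4.50 to -3.94), an 18.5-fold lower level. It was -3.29 in *ikb-1(nr2027)* (-3.52 to -3.07) and -1.92 in the double mutant (-2.08 to -1.77). *nlp-31* had log2 ratios of -2.61 (-2.77 to -2.46), -2.39 (-2.55 to -2.23) and -0.57 (-0.67 to -0.47) in the same order. The level of *nlp-31* was thus 6.12-fold, 5.23-fold and 1.48-fold below WT. *nlp-30* had log2 ratios of -2.25 (-2.45 to -2.07), -1.60 (-1.77 to -1.42) and 0.21 (0.09 to 0.33).

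**Figure D1:**
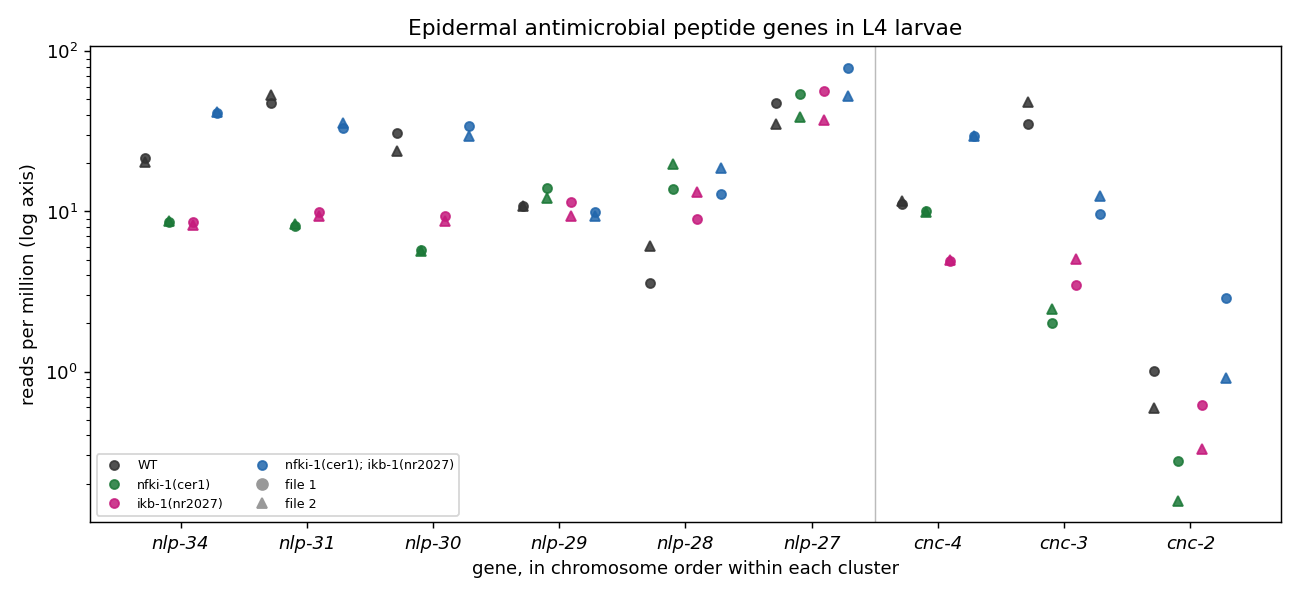
CPM (log axis) of 9 antimicrobial peptide genes in the 8 L4 files, by strain (colour) and file (circle, file 1; triangle, file 2). The single mutants sit below WT for *nlp-34*, *nlp-31*, *nlp-30* and *cnc-3*, with *cnc-3* between 2.02 and 5.05 against 35.3 and 48.3 in WT (scaling to epidermis markers would turn *nlp-34* of both strains and *nlp-30* of *ikb-1(nr2027)*), and the double mutant sits above both single mutants for these 4 genes.

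*nlp-34*, the gene at the end of the cluster, was below WT in the single mutants, a direction that turned under scaling to epidermis markers (0.61 and 0.34), and above WT in the double mutant. It was at 21.7 and 20.3 CPM in the WT files, 8.55 and 8.75 in the *nfki-1(cer1)* files, 8.63 and 8.21 in the *ikb-1(nr2027)* files, and 40.9 and 41.8 in the double mutant. Its log2 ratios were -1.27 (-1.44 to -1.1), -1.31 (-1.50 to -1.13) and 0.97 (0.85 to 1.1).

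The other end of the same cluster behaved differently. *nlp-28* was at 3.59 and 6.06 CPM in WT, 13.9 and 19.8 in the *nfki-1(cer1)* files, 9.01 and 13.2 in the *ikb-1(nr2027)* files, and 12.8 and 18.7 in the double mutant. All mutant files of *nlp-28* thus lay above both WT files, with log2 ratios of 1.82 (1.58 to 2.06), 1.21 (0.96 to 1.47) and 1.70 (1.46 to 1.95). *nlp-27* overlapped WT in the single mutants, at 47.6 and 35.0 in WT, 54.3 and 38.6 in the *nfki-1(cer1)* files, 56.3 and 37.4 in the *ikb-1(nr2027)* files, and 79.1 and 52.9 in the double mutant. Its log2 ratios were 0.18, 0.19 and 0.67. *nlp-29*, the infection reporter, was close to WT under TMM but not under the epidermis scaling, at 10.9 and 10.8 CPM in WT, 14.1 and 12.1 in the *nfki-1(cer1)* files, 11.4 and 9.44 in the *ikb-1(nr2027)* files, and 9.99 and 9.35 in the double mutant. The log2 ratios of *nlp-29* were 0.28 (0.10 to 0.47), -0.05 (-0.25 to 0.15) and -0.17 (-0.37 to 0.04), of which the last 2 intervals include 0. Scaled to epidermis markers these ratios were 2.16, 1.60 and 1.22.

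Within 10.946 kb, genes of 1 cluster therefore had lower, similar and higher levels in the same strain. In *nfki-1(cer1)* the log2 ratios along the cluster were -1.27 for *nlp-34*, -2.61 for *nlp-31*, -2.25 for *nlp-30*, 0.28 for *nlp-29*, 1.82 for *nlp-28* and 0.18 for *nlp-27*. *nlp-28* and *nlp-31* of that strain differed by more than 4 log2 units, far beyond their counting intervals. The caenacins also differed among themselves.

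**Figure D2:**
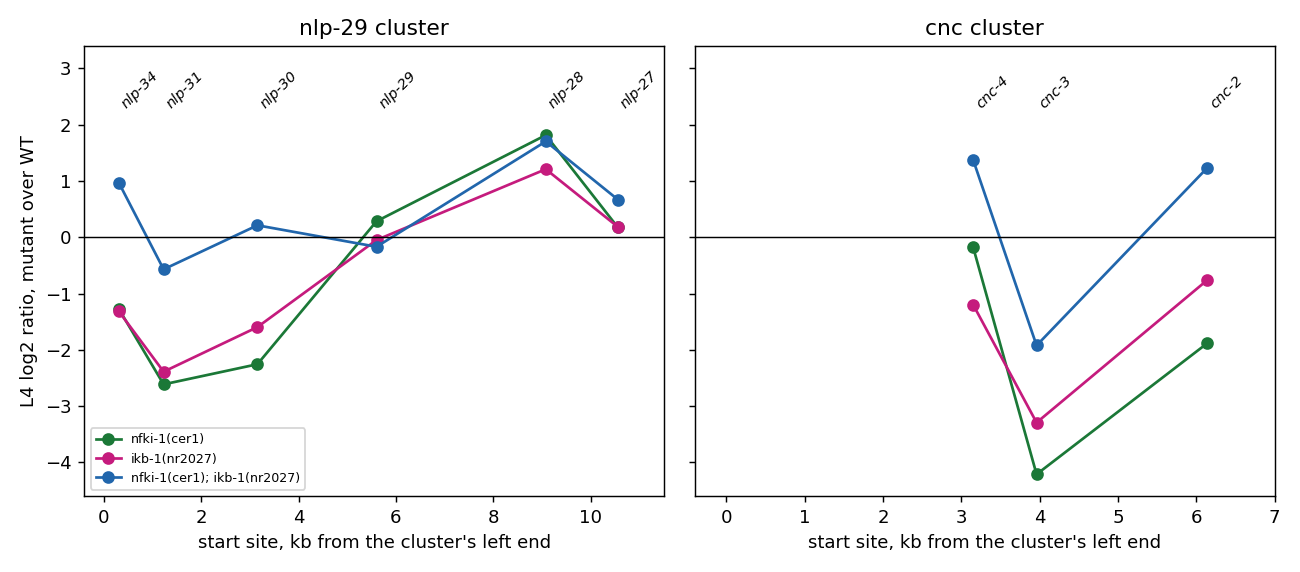
Log2 ratio of each L4 mutant to WT (vertical axis) against the distance of the gene's start site from the left end of its cluster in kb (horizontal axis), for the *nlp-29* cluster and the *cnc* cluster. In the single mutants *nlp-34*, *nlp-31* and *nlp-30* lie between -1.27 and -2.61 under TMM scaling, *nlp-28* lies at 1.21 and 1.82 (the open diamonds of the plot of ratios by gene show the epidermis scaling), and *cnc-3* is the lowest gene of each strain.

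*cnc-4*, which lies next to *cnc-3*, was at 11.08 and 11.7 CPM in WT, 10.1 and 9.89 in the *nfki-1(cer1)* files, 4.93 and 4.96 in the *ikb-1(nr2027)* files, and 29.6 in both files of the double mutant. Its log2 ratios were -0.18 (-0.37 to 0.01), -1.20 (-1.44 to -0.96) and 1.37 (1.21 to 1.54). *cnc-4* had a positive ratio in *nfki-1(cer1)* under library totals (0.23). It separated the single mutants, with a level 2.03-fold higher in the *nfki-1* mutant than in the *ikb-1* mutant. *cnc-2*, the DBL-1-dependent caenacin, rested on few reads, with 30 counts over both WT files, 11 for *nfki-1(cer1)*, 20 for *ikb-1(nr2027)* and 75 for the double mutant. Its log2 ratios of -1.88 (-3.03 to -0.84), -0.76 (-1.65 to 0.10) and 1.23 (0.61 to 1.90) had the widest intervals of the 9 genes. The double mutant files of *cnc-2* held 57 and 18 counts. At 2.88 and 0.914 CPM they overlapped the WT files, at 1.02 and 0.589.

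A gene was called at L4 where its log2 ratio was at least 2 in size, a 4-fold change. In *nfki-1(cer1)* 3 of 9 members were called lower (*nlp-30*, *nlp-31* and *cnc-3*), where 6.40% of the 14812 genes tested were, and 0 were called higher, where 12.9% were. In *ikb-1(nr2027)* 2 of 9 were called lower (*nlp-31* and *cnc-3*), against 4.22% of all genes, and 0 higher, against 12%. In the double mutant 0 of 9 were called in either direction, against 7.19% of all genes higher and 2.01% lower. The median log2 ratio of the 9 members was -1.27, -1.20 and 0.67, and that of all genes -0.05, -0.02 and -0.06. When the L4 strains were instead fitted as single samples that vary as the L1 replicates do, the median log2 ratio of the 9 members was -1.36, -1.30 and 0.67. With 1 sample per L4 strain this fit called few genes of any kind, and none of the members. Its calls therefore cannot tell whether the members differ from other genes.

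**Figure D3:**
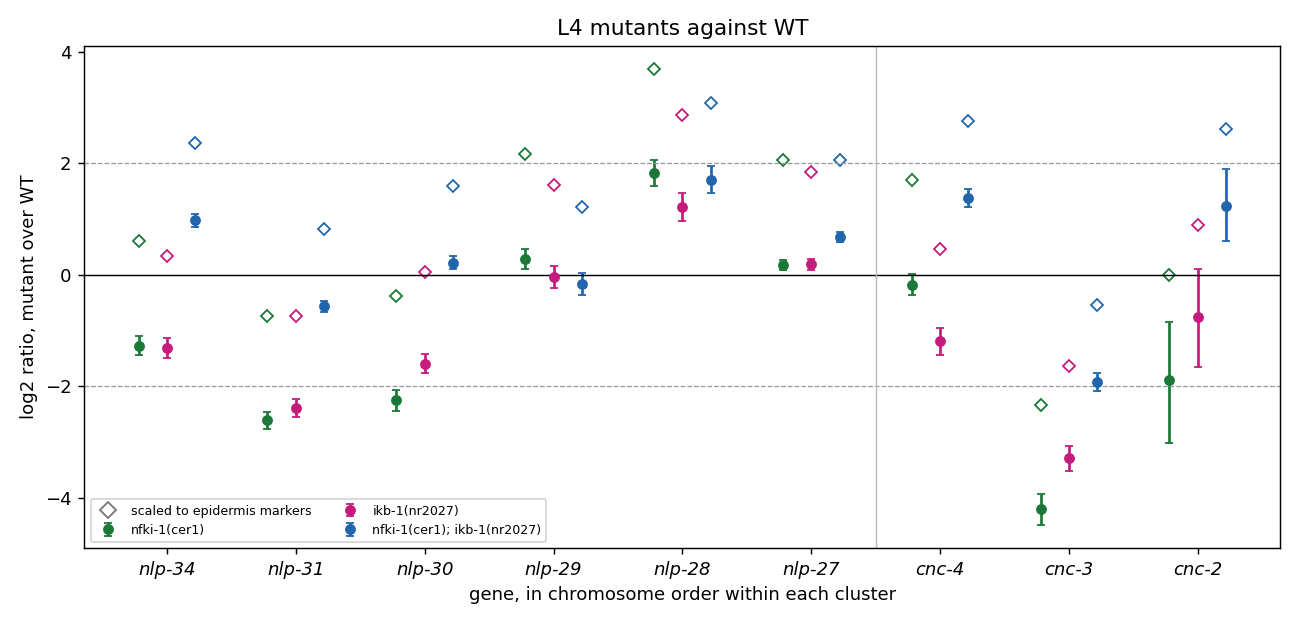
Log2 ratio of each L4 mutant to WT for 9 genes, with filled points for TMM scaling (bars, exact binomial 95% intervals for counting error) and open diamonds for scaling to 7 epidermis markers. *nlp-31* and *cnc-3* pass the dashed line at -2 in both single mutants under TMM scaling, and under the epidermis scaling *cnc-3* of *nfki-1(cer1)* alone remains below it, while *nlp-34* of both single mutants turns positive.

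Against the single mutants, the double mutant was higher for most of these genes. Relative to *nfki-1(cer1)* the log2 ratio was 2.47 for *nlp-30*, 2.04 for *nlp-31*, 2.24 for *nlp-34*, 3.12 for *cnc-2* and 2.29 for *cnc-3*. These 5 of 9 were called higher, against 2.96% of all genes, and 0 lower, against 3.72%. Scaled to epidermis markers, *cnc-2* (2.62) alone of the 5 was still called, against 1.32% of all genes, with *nlp-30* at 1.97, *nlp-31* at 1.55, *nlp-34* at 1.75 and *cnc-3* at 1.79. Relative to *ikb-1(nr2027)* the log2 ratio was 2.29 for *nlp-34* and 2.57 for *cnc-4*, and these 2 of 9 were called higher, against 1.19% of all genes, and 0 lower, against 2.62%. *nlp-30* (1.81), *nlp-31* (1.82), *cnc-2* (1.99) and *cnc-3* (1.37) were also above the *ikb-1* mutant, below the threshold. *nlp-29* of the double mutant was lower than in *nfki-1(cer1)*, at -0.45 (-0.64 to -0.27), and did not differ beyond counting error from *ikb-1(nr2027)*, at -0.12 (-0.32 to 0.08). Both comparisons use the same double mutant sample, and the comparisons with WT share the WT sample.

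Markers of the epidermis, the germ cells and the cuticle also differed between the L4 strains. The summed level of 7 epidermis markers was 1714 CPM for L4 WT, 289 for *nfki-1(cer1)*, 347 for *ikb-1(nr2027)* and 561 for the double mutant, with none at 0. Among them *dpy-7*, *bli-1* and *rol-6*, which encode cuticle collagens, stood at -4.17, -2.73 and -3.06 against WT in *nfki-1(cer1)*, and made up 1582 of the 1714 CPM in WT. The epidermal transcription factor genes *lin-26* and *elt-1* of the same list were at 0.10 and 0.52 in *nfki-1(cer1)* and at 0.08 and 0.48 in *ikb-1(nr2027)*. *nhr-25*, also a transcription factor gene of the list, was lower, at 9.49 CPM in WT, 3.07, 3.84 and 4.48 in the mutants. *che-14*, which is no collagen gene, was at 47.1, 10.4, 12.7 and 18.0 CPM in the same order. The median over the list was -2.18 in *nfki-1(cer1)*, and all 7 markers were below WT in the double mutant. The summed level of 7 germ cell markers was 219 in WT, 2169, 2077 and 859 in the mutants in the same order, and all 7 were called higher in both single mutants and 3 of 7 in the double mutant. Of 4 intestine, 4 body wall muscle and 5 neuron markers 0 were called in the L4 mutants, and the summed intestine markers were at 3721, 1687, 1781 and 2911 from WT to the double mutant. The part of these shifts in the peptide genes was not tested, and in whole animals fewer cells of a type and less RNA per cell cannot be told apart. With no scaling but the library totals, the all-gene median moved to 0.36, 0.31 and 0.14, and the members were called 1 higher and 2 lower for *nfki-1(cer1)*, with no other member count against WT changed at L4. Scaled to the epidermis markers, it moved to 1.83, 1.63 and 1.33, and the members were then called 3 higher (*nlp-27*, *nlp-28* and *nlp-29*) and 1 lower (*cnc-3*) for *nfki-1(cer1)*, 1 higher (*nlp-28*) and 0 lower for *ikb-1(nr2027)*, and 5 higher for the double mutant (*nlp-27*, *nlp-28*, *nlp-34*, *cnc-2* and *cnc-4*). Of all genes in *nfki-1(cer1)*, 1912 were called higher and 948 lower under TMM, 2706 and 547 under library totals, and 6827 and 61 under the epidermis scaling. The share of all genes called higher under the epidermis scaling was 46.1%, 40.5% and 24.4% in the 3 mutants. *nlp-34* and *cnc-4* turned positive in both single mutants under that scaling, as did *nlp-29*, *nlp-30* and *cnc-2* in *ikb-1(nr2027)* and *nlp-29* and *nlp-31* in the double mutant. Since a scaling moves every gene of a strain by the same amount, the distance between 2 members is the same under each of them.

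Under TMM scaling none of the listed upstream genes of the epidermal response was called in the L4 mutants against WT. The gene lists here and in the next paragraph are given under TMM and were not counted under the epidermis scaling. That scaling moved the all-gene medians to 1.83, 1.63 and 1.33, so calls in these lists can differ under it. Of 17 genes of the p38 pathway (from the receptor *dcar-1* and the adaptor *tir-1* through *nsy-1*, *sek-1* and *pmk-1* to *snf-12*, *sta-2* and *elt-3*), 0 were called in any L4 mutant, with medians of -0.51, -0.41 and -0.23. Of 6 genes of the DBL-1 pathway, the ligand *dbl-1*, its receptors *sma-6* and *daf-4* and the Smads *sma-2*, *sma-3* and *sma-4*, 0 were called. In the same order of strains 5, 5 and 6 of them were below WT, and 1, 1 and 0 above. Cuticle genes whose loss raises *nlp-29* in other settings were lower. All 6 furrow collagens (*dpy-2*, *dpy-3*, *dpy-7*, *dpy-8*, *dpy-9* and *dpy-10*) were called lower in each L4 mutant, with medians of -4.15, -3.87 and -3.25, and *osm-8*, which encodes a mucin-like secreted protein, had log2 ratios of -3.13, -2.82 and -2.27. *osm-8* was the only one of 6 osmotic response genes called under TMM scaling, and *dpy-7* also stands in the list of epidermis markers. *nlp-29* itself, in the same files and also under TMM, had log2 ratios of 0.28, -0.05 and -0.17. Scaled to epidermis markers *nlp-29* was at 2.16, 1.60 and 1.22. That scaling raises *osm-8* and the furrow collagens of a strain by the same amount as *nlp-29*, so these values do not stand beside their TMM ratios.

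Genes that follow the molting cycle were lower as well. Of 13 such genes, 9, 6 and 6 were called lower in the 3 L4 mutants, with medians of -2.45, -2.0 and -1.84. *noah-2* and *noah-1*, which encode extracellular matrix proteins of the epidermis, and *mlt-8* were at -3.56, -3.28 and -3.17 against WT in *nfki-1(cer1)*. Among 11 immune effectors of the intestine, the lysozyme gene *lys-7* alone was called, higher in *nfki-1(cer1)* at 2.24. Of 12 further *nlp* and *cnc* genes of these families, 7 passed the filter at L4 and 0 were called. Their medians were -1.19, -1.06 and 0.22 in the same order of strains.

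The comparison of WT at both stages showed which members differed between these L4 and L1 larvae. Per kb of exon, so that genes can be compared, L4 WT had 130.5 CPM per kb of *nlp-27*, 112 of *nlp-31*, 94.3 of *cnc-3*, 79.4 of *nlp-34*, 38.5 of *nlp-30*, 30.5 of *nlp-29*, 26.1 of *cnc-4*, 14.4 of *nlp-28* and 2.27 of *cnc-2*. At L1, *nlp-29* came first with 95 on the same scale, before *nlp-34* (57.7), *nlp-27* (45.4), *nlp-31* (43.0), *nlp-28* (31.5), *cnc-4* (27.6), *cnc-3* (8.52), *nlp-30* (6.12) and *cnc-2* (3.38). The order thus differed between these L4 and L1 samples. At L1 only the first place of *nlp-29* and the gap between *cnc-4* and the genes below it exceeded the spread between the WT replicates, and neighbours in the order from *nlp-34* to *cnc-4* overlapped. At L4 neighbours from *nlp-27* to *nlp-34* overlapped between the 2 files.

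**Figure D4:**
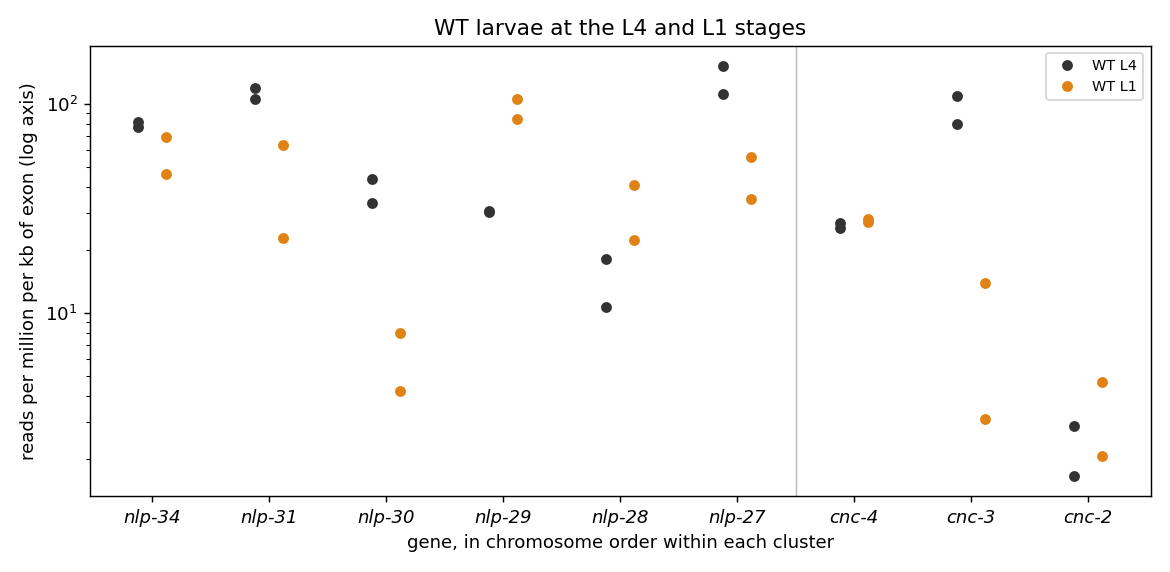
CPM per kb of exon (log axis) of 9 genes in the 2 WT files of L4 (black) and the 2 WT libraries of L1 (orange), each stage scaled on its own. *cnc-3* and *nlp-30* are higher at L4 (scaling to epidermis markers would bring *nlp-30* to -0.01 on the log2 scale), where *cnc-3* reaches 94.3 over both files against 8.52 at L1, and *nlp-29* is higher at L1, with 95 against 30.5.

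With all libraries scaled together, the log2 ratio of L4 to L1 WT was 3.75 for *cnc-3* and 2.94 for *nlp-30*. These 2 of 9 were called higher at L4, against 15% of 17628 genes, and 0 were called lower, against 23%. *nlp-27* (1.81), *nlp-31* (1.66) and *nlp-34* (0.74) were also above L1, *cnc-4* (0.21, or -0.32 under library totals) and *cnc-2* (-0.30) were close to it, and *nlp-28* (-0.85) and *nlp-29* (-1.35) were below. Scaled to epidermis markers these directions change, *nlp-30* to -0.01 and all others but *cnc-3* (0.77) to values between -1.13 and -4.25. The 7 markers themselves were 4.18 higher at L4 by their median, and this scaling used the geometric mean of the 6 with enough counts in every sample. Without WT L1 replicate 1, in which *cnc-3* read 6.18 CPM against 1.38 in replicate 2, 4 members were called higher, where 15.6% of all genes were. The furrow collagens (6 of 6) and the molting cycle genes (13 of 13) were called higher at L4 too, with medians of 6.59 and 5.29. Of the upstream genes, *sta-2* (-2.66), *plc-3* (-2.36) and the receptor gene *daf-4* (-2.55) were called lower at L4. The stages also differ in feeding, as the L1 larvae were starved for 3 h, and in libraries and sequencing depth. Stage, feeding and library therefore cannot be told apart.

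In L1 larvae no member passed the test in any comparison. edgeR's quasi-likelihood test with Benjamini-Hochberg adjustment over 19183 genes called 0 of 9 members at an adjusted p below 0.01 in *nfki-1(cer2)* against WT, where 0% of all genes were called, 0 of 9 in *ikb-1(cer9)* against WT (0% of all genes) and 0 of 9 in *ikb-1(cer9)* against *nfki-1(cer2)* (0%). DESeq2 called 0 of 9 as well. In the same order of comparisons it called 0.0052%, 0.021% and 0.047% of all genes higher and 0.0052%, 0.031% and 0.036% lower. Below an unadjusted p of 0.05 there were 0 members in *nfki-1(cer2)*, 2 higher in *ikb-1(cer9)* against WT (*nlp-29* and *cnc-2*), where 0.735% of all genes were, and 4 higher in *ikb-1(cer9)* against *nfki-1(cer2)* (*nlp-28*, *nlp-29*, *nlp-30* and *cnc-2*), where 1.33% were. The replicates are not stated to be separate cultures, so the tests measure the spread between these libraries.

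*nlp-29* gave the clearest order of strains at L1. It was at 30 and 37.3 CPM in WT, 23.9 and 26.2 for *nfki-1(cer2)*, and 50.5 and 86.0 for *ikb-1(cer9)*, so the ranges of the 3 strains did not overlap. The log2 fold change was 1.02 ± 0.29 (SE) in *ikb-1(cer9)* and -0.43 ± 0.28 in *nfki-1(cer2)*, each with an edgeR adjusted p of 1.00. Between the mutants it was 1.45 ± 0.29 (SE), with an edgeR adjusted p of 1.00 and a DESeq2 adjusted p of 0.0252. Without *ikb-1(cer9)* replicate 2 the fold change of *nlp-29* against WT was 0.59.

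*nlp-28* was at 7.50 and 13.6 in WT, 4.36 and 7.08 for *nfki-1(cer2)*, and 11.4 and 19.4 for *ikb-1(cer9)*, with a log2 fold change of 1.43 ± 0.43 (SE) between the mutants. *nlp-30* was at 5.71 and 3.03 in WT, 4.90 and 2.08 for *nfki-1(cer2)*, and 10.5 and 7.61 for *ikb-1(cer9)*, with 1.38 ± 0.51 (SE) between the mutants. *nlp-27* was at 17.6 and 11.08 in WT, 21.4 and 9.63 for *nfki-1(cer2)*, and 27.1 and 25.5 for *ikb-1(cer9)*. For *nlp-27* and *nlp-30* both *ikb-1(cer9)* libraries were above all 4 others, with log2 fold changes against WT of 0.88 ± 0.41 and 1.05 ± 0.50 (SE). The edgeR adjusted p was 1.00 for every member tested in every L1 comparison.

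Over the 9 members, 5 had both *ikb-1(cer9)* libraries above both WT libraries (*nlp-27*, *nlp-29*, *nlp-30*, *nlp-31* and *cnc-4*), against 7.07% of all genes. Against *nfki-1(cer2)* the same held for 5 (*nlp-27*, *nlp-28*, *nlp-29*, *nlp-30* and *cnc-2*), where 12.5% of all genes did. In *nfki-1(cer2)*, 2 members (*nlp-28* and *nlp-29*) lay below both WT libraries, against 10.2% of all genes. Compared within same-numbered libraries, *ikb-1(cer9)* was above WT in both pairs for 6 members (*nlp-28* in addition), against 18.5% of all genes, and *nfki-1(cer2)* below WT in both for 3 (*nlp-30* in addition), against 25.9%, and above in both for 2 (*nlp-31* and *cnc-3*), against 27.9%. The median log2 fold change of the members against WT was 0.05 for *nfki-1(cer2)* and 0.99 for *ikb-1(cer9)*, and that of all genes 0.00 and -0.02. With 1 library left out, the member median for *ikb-1(cer9)* ran from 0.20 (without *ikb-1(cer9)* replicate 2) to 1.25 (without WT replicate 1). For *nfki-1(cer2)* it ran from -0.57 to 0.37. Of the 10 further genes of these families tested at L1, 0 were called in *ikb-1(cer9)*, and their fold changes ran from 0.06 to 1.74 with a median of 0.42. The highest of these came from genes whose *ikb-1(cer9)* libraries differed widely. *nlp-32* was at 2.54 ± 2.67 CPM, *cnc-11* at 24.5 ± 25.1 and *cnc-6* at 3.93 ± 3.53 (SD, n = 2). In *nfki-1(cer2)*, 8 of these 10 were below WT, with a median of -0.53 and 0 called. No gene of the pathway, cuticle, molting and tissue marker lists was called by edgeR at L1.

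**Figure D5:**
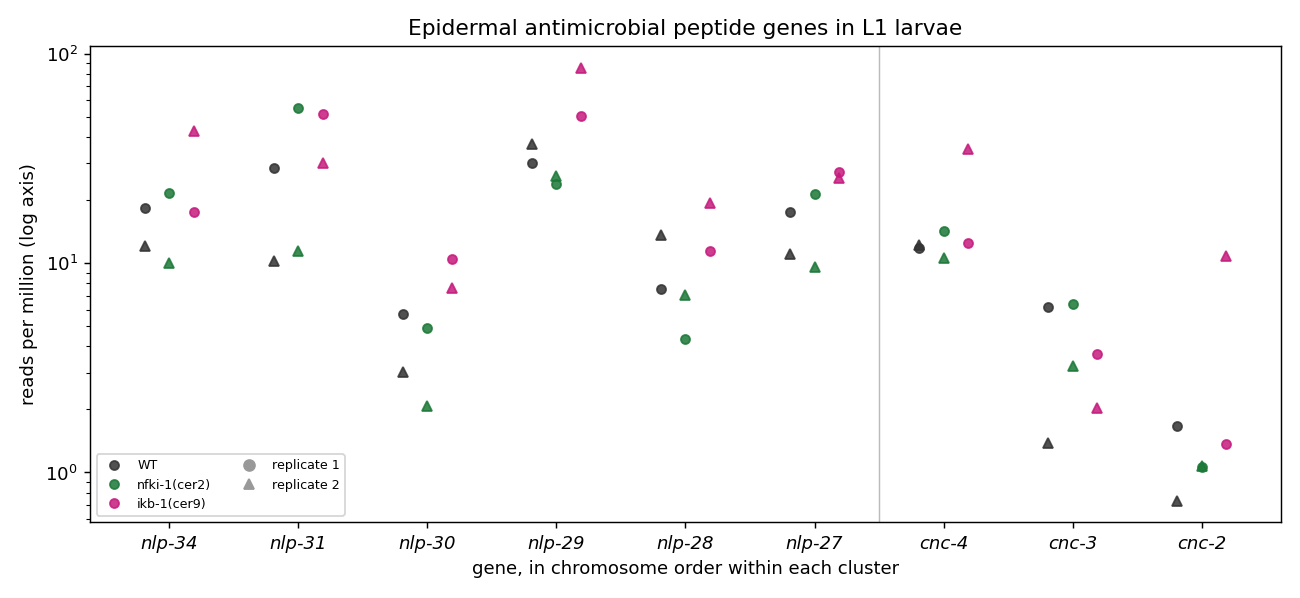
CPM (log axis) of 9 genes in the 6 L1 libraries, by strain (colour) and replicate (circle, replicate 1; triangle, replicate 2). For *nlp-29* the *ikb-1(cer9)* libraries, at 50.5 and 86.0, lie above the other 4, and *ikb-1(cer9)* replicate 2 stands apart for *cnc-2* (10.8), *cnc-4* (35.1) and *nlp-34* (42.9).

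A single library carried the values of 3 members. *cnc-2* was at 10.8 CPM in *ikb-1(cer9)* replicate 2 and between 0.734 and 1.66 in the other 5 libraries, among them 1.37 in *ikb-1(cer9)* replicate 1. *cnc-4* was at 35.1 in that library and 10.6 to 14.2 in the others, and *nlp-34* at 42.9 against 10.0 to 21.7. Without this library the log2 fold change against WT went from 2.34 ± 0.93 (SE) to 0.19 for *cnc-2*, from 0.99 ± 0.47 to 0.06 for *cnc-4* and from 0.99 ± 0.54 to 0.20 for *nlp-34*. The summed level of the 7 epidermis markers was not high in this library, at 78.8 CPM against 170 in replicate 1 of the same strain and 95.7 to 128 in the other strains.

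*nlp-31* and *cnc-3* varied more between the replicates than between the strains. *nlp-31* was at 28.5 and 10.3 in WT, 55.1 and 11.4 for *nfki-1(cer2)*, and 51.5 and 30.1 for *ikb-1(cer9)*. *cnc-3* was at 6.18 and 1.38 in WT, 6.40 and 3.21 for *nfki-1(cer2)*, and 3.67 and 2.03 for *ikb-1(cer9)*. In all 3 strains replicate 2 had less of both genes, and of *nlp-27* and *nlp-30*, and more of *nlp-28* and *nlp-29*. The log2 fold change of *cnc-3* was 0.35 ± 0.73 for *nfki-1(cer2)* and -0.41 ± 0.73 for *ikb-1(cer9)* (SE), and that of *nlp-31* was 0.78 ± 0.79 and 1.07 ± 0.80.

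Across the 7 groups, on a scale common to all libraries, *cnc-2* ranged most, 24.7-fold between *ikb-1(cer9)* L1, where replicate 2 held most of it, and *nfki-1(cer1)* L4, followed by *cnc-3*, 19.7-fold between WT L4 and *nfki-1(cer1)* L4, and *nlp-30*, 11-fold. The other members ranged 3.4-fold (*nlp-28*) to 6.51-fold (*nlp-31*). 4 members (*nlp-27*, *nlp-30*, *nlp-34* and *cnc-4*) had their highest level in the L4 double mutant. Pearson's r of each member with the mean profile of all 9 over the 7 groups was 0.96 for *nlp-34*, 0.86 for *cnc-4*, 0.82 for *nlp-31* and 0.79 for *nlp-30*, but 0.24 for *nlp-28* and 0.04 for *nlp-29*. The 7 points share libraries within a stage, and each member is part of the mean. Of 8743 genes whose mean over the groups reached 10 CPM, those with the most similar profile over the 7 groups were *ttr-8* (r = 0.97), *gst-7* (0.96), ZK829.7 (0.96), C25E10.12 (0.95) and *chw-1* (0.95).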

How the data were processed

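Per the labels and methods, the authors made cDNA libraries from whole larvae, trimmed reads with Trim Galore, aligned them to WBcel235 with Bowtie2 and counted unique alignments per gene with HTSeq. The deposited values are these raw counts. The labels' extraction text also mentions tissue dissociation and sorting of cells, which the methods do not. The samples are described here as whole larvae, as the growth text and methods have them. The strand setting and the annotation release are not given in the sources used here. Rows that name no gene (13.4% to 20.0% of reads per file) were left out.

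R 4.3.3 with edgeR 4.0.16 and DESeq2 1.42.0 and Python 3.11.15 were used. Counts were scaled by TMM over genes that passed filterByExpr (14812 at L4, 19183 at L1, 17628 together). At L1, edgeR's quasi-likelihood test was fitted to all 6 libraries, with Benjamini-Hochberg adjustment over all genes. At L4 and between stages ratios of summed counts were called at a log2 ratio of 2 with no test, and edgeR or DESeq2 fits there served only as alternatives. In such ratios a count of 0 was set to 3. L1 replicate numbers pair the libraries: deviations of same-numbered libraries correlated at r of 0.480 to 0.748 across 13417 genes. The scripts were tested on simulated data. The alternatives were other scalings, filters, thresholds, DESeq2, a replicate block and leaving out libraries.

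The members and gene lists were chosen with earlier results of these data known. All members were named, and other genes where they were called in a list described (up to 3 per list by size), the 2 mutated genes and the 5 genes of most similar profile. Further genes of the epidermis marker list and of the *nlp* and *cnc* families were named for their direction or their spread between libraries.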

Additional observations from a re-analysis of the deposited data

Results flagged for a closer look

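For 5 pairs of a member and a mutated gene, every mutant library lay on 1 side of WT at L4 and on the other side at L1. The alleles, the stages and the libraries differ between these contrasts, and the difference itself was not tested.

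*nlp-31* was lower in *ikb-1(nr2027)* at L4 (-2.39) and higher in *ikb-1(cer9)* at L1 (1.07), a difference of -3.46 between the log2 changes. Its L1 libraries were barely apart, with 30.1 CPM in *ikb-1(cer9)* replicate 2 and 28.5 in WT replicate 1. Under library totals they overlapped. *nlp-30* had -1.60 and 1.05 in the same contrasts, a difference of -2.65, and *cnc-4* -1.20 and 0.99, a difference of -2.19 (the L1 value of *cnc-4* is 0.06 without *ikb-1(cer9)* replicate 2). *nlp-28* was higher in *nfki-1(cer1)* at L4 (1.82) and lower in *nfki-1(cer2)* at L1 (-0.88), a difference of 2.70, and *nlp-29* had 0.28 and -0.43, a difference of 0.71. Scaled to epidermis markers, the L4 values of *nlp-30* and *cnc-4* in *ikb-1(nr2027)* were 0.06 and 0.45, on the same side of WT as at L1. No L1 value among them passed the test (edgeR, adjusted p of 1.00).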

How the results depend on the processing

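At L4, RLE size factors, no filter and edgeR or DESeq2 with the 2 files as replicates gave the same counts of called members (3 lower for *nfki-1(cer1)*, 2 lower for *ikb-1(nr2027)* and 0 for the double mutant, with 0 higher), and so did edgeR with the replicate block. Library totals alone called 1 higher in *nfki-1(cer1)*. Each file left out in turn gave 0 to 1 higher there. At a log2 ratio of 1, both single mutants had 1 higher and 5 lower, and the double mutant 3 and 1, where the shares of all genes were 28.1% higher and 23.2% lower for *nfki-1(cer1)*, 27.2% and 19.9% for *ikb-1(nr2027)*, 18.6% and 7.46% for the double mutant. Scaled to epidermis markers the numbers were 3 and 1 for *nfki-1(cer1)*, 1 and 0 for *ikb-1(nr2027)* and 5 and 0 for the double mutant, and the double mutant against *nfki-1(cer1)* had 1 higher in place of 5 (the scalings of this comparison were chosen after seeing the data). With the spread of L1 no member was called in any mutant, where few genes of any kind were. Between stages the members called higher numbered 4 at a log2 ratio of 1, with 1 lower, where 27.3% of all genes were higher and 36.5% lower. Fewer members than in the main comparison were called with the spread of L1, as were fewer of all genes. Under the epidermis scaling 0 were higher and 5 lower, where 4.58% and 71.1% of all genes were, and *nlp-30* reversed to -0.00851. Members called higher numbered 2 to 4 when a WT L1 library was left out, where 15.6% of all genes were called higher.

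At L1, 0 members were called under DESeq2, other scalings and filters, the 2 strains alone, the replicate block (paired libraries) and each library left out. Of all genes these settings called at most 0.047% in 1 direction, under DESeq2. Only an unadjusted p below 0.05 called any member, 2 and 4 higher as reported. The block changed no call. Under library totals 4 members in place of 5 had both *ikb-1(cer9)* libraries above both WT libraries, without *nlp-31*, where 1253 of 19183 genes did. With a library left out, the *nfki-1(cer2)* changes ran from -0.57 to 0.58 for *nlp-27*, -1.07 to 0.18 for *nlp-30*, -0.76 to 1.67 for *nlp-31*, -0.60 to 0.51 for *nlp-34*, -0.64 to 0.52 for *cnc-2*, -0.36 to 1.78 for *cnc-3* and -0.18 to 0.25 for *cnc-4*, and so reversed. *cnc-3* in *ikb-1(cer9)* ran from -1.11 to 1.05 and *nlp-31* between the mutants from -0.43 to 1.85. The cause was not tested. *cnc-1* and *cnc-2* at L4 are limited by depth.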
